A study of Mus musculus with 12 samples.

Results

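The genes described here make cholesterol and fatty acids, control that synthesis, or carry its sterol products. They are 35 genes picked by name from the textbook pathway and not by their values, although earlier results of these data were known by then. Of these, 34 could be followed among the 18193 genes with a probe set of their own. Acat2, a thiolase at the start of the pathway, was not analysed here. Each gene is read from its probe set with the highest mean over the 12 arrays. All 34 passed the filter on dim probe sets, a mean log2 level of at least 4.05, which left 12609 genes to test, and all 34 also passed it when the mean was taken over the 9 arrays other than those labelled iFoxA1Treg. By role they comprise 7 genes of the mevalonate arm, 11 of the sterol arm, 5 SREBP control genes, 2 sterol transport genes and 9 genes of the fatty acid arm.

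Cholesterol is built from acetyl-CoA by way of mevalonate and isoprenoid units to squalene, which is closed into a ring and trimmed to the finished sterol. The enzymes are switched on together by the SREBP factors, which sit in the endoplasmic reticulum bound to the escort protein Scap, travel with it to the Golgi when sterols are scarce, and are cut free there. Insig proteins hold Scap back when sterols are plentiful, and T cells are known to raise the whole programme when they begin to grow and divide.

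The study placed RNA of 4 mouse cell types on Affymetrix Mouse430_2 arrays, 3 arrays each, all from the C57BL/10.RIII background. EncT are encephalitogenic T cells (surface label CD4+), the cells that transfer experimental autoimmune encephalomyelitis, a model of multiple sclerosis. Treg are regulatory T cells labelled CD4+,TGFbeta+. The FoxA1 regulatory T cells, labelled CD4hi,PD-L1hi, form the other two groups, nFoxA1Treg, neuron induced by title but natural by cell type field, and iFoxA1Treg, induced with IFN-beta. No treatment dose, age, pooling of animals or culture time is given in the sources used here, and nothing says that the replicates came from separate animals or cultures. P-values therefore measure only the spread between these samples, which may be technical, and 3 arrays per group limit the precision.

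The labels were checked against defining genes. The 9 arrays of EncT, nFoxA1Treg and Treg carried T cell RNA, with group means of 10.4 to 10.6 for Cd4 on the log2 scale. The arrays labelled iFoxA1Treg carried less of it: Cd4 averaged 4.24, and Cd3e averaged 7.83, lower than the 10.6 to 10.7 elsewhere but well above the filter, against 12.2 for the B cell gene Cd79b and 12.4 for the macrophage gene Lyz2. Summed linear levels of the marker lists on these arrays were 6380 to 6640 for T cells (20800 to 23700 on the other 9), 26600 to 28600 for B cells (170 to 292), 21200 to 21800 for macrophages (2390 to 3120) and 17100 to 17800 for MHC class II and dendritic cell genes (116 to 631). Their correlation with the other arrays was 0.683 to 0.739, against 0.815 to 0.847 between the T cell groups. Xist averaged 2.11 there and 11.1 to 11.5 elsewhere, and the Y-linked Eif2s3y 9.66 there and -1.62 to 2.30 elsewhere. Foxa1 lay below the filter, with group means between -5.54 and 2.31. Results on these arrays are kept apart from those on the T cell groups. In RNA of a bulk population, fewer cells of a type and less RNA per cell cannot be told apart.

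**Figure D1:**
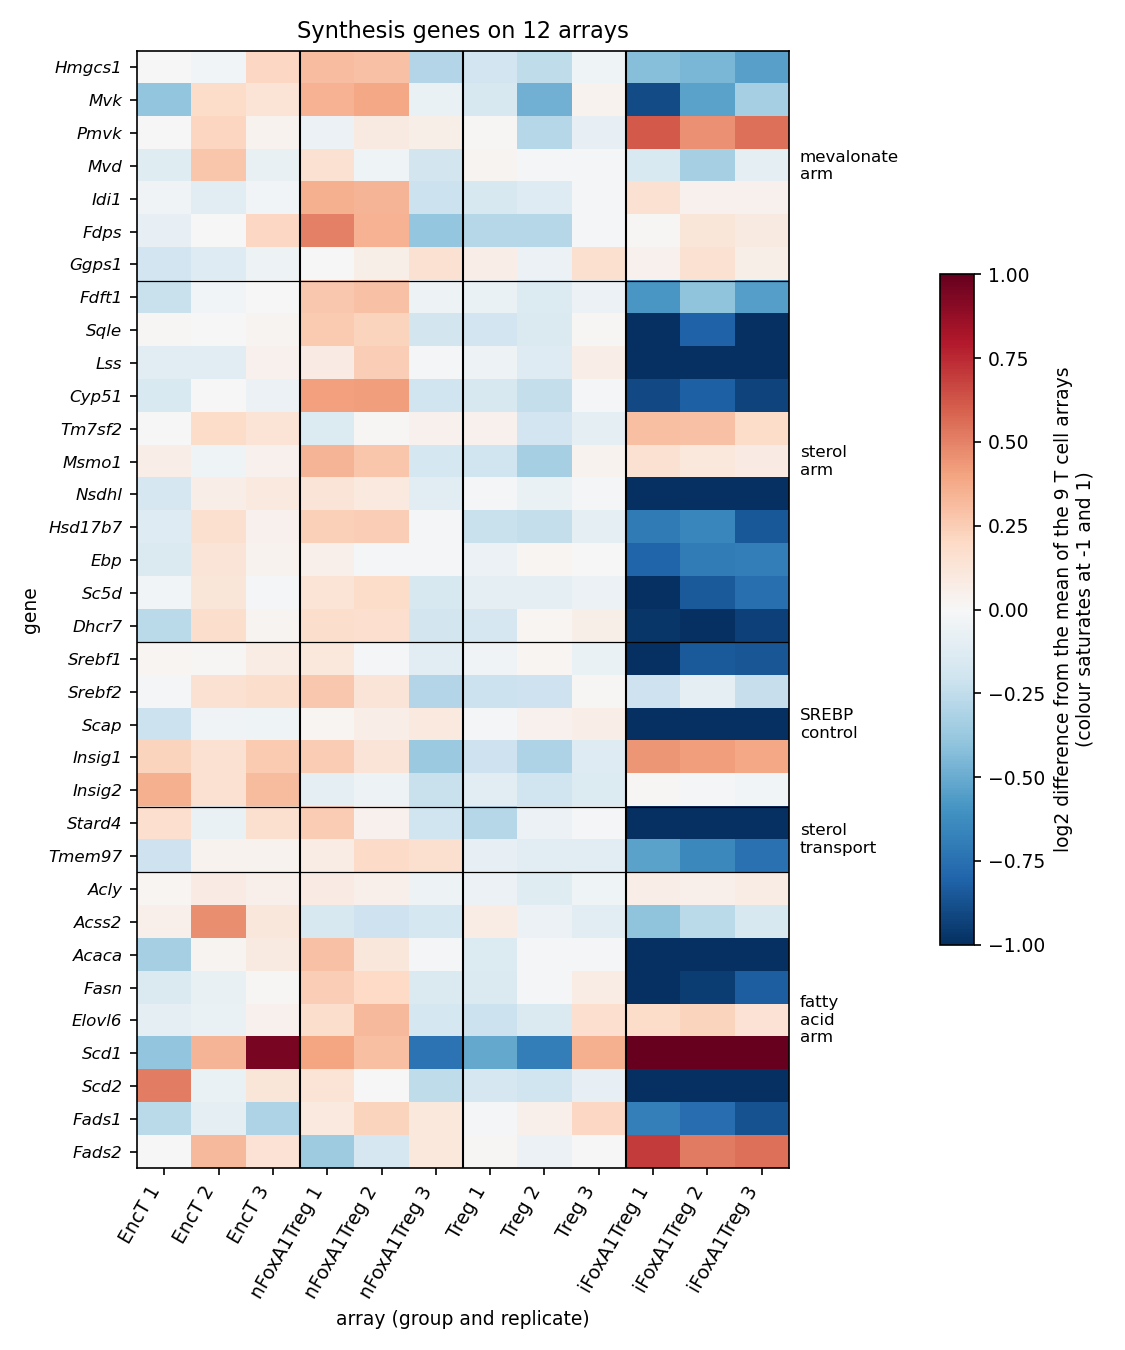
Heat map of the 34 genes (vertical axis, by role) on the 12 arrays (horizontal axis, by group and replicate); colour is the log2 difference from the gene's mean over the 9 T cell arrays, saturating at -1 and 1. The arrays labelled iFoxA1Treg are blue over most of the sterol arm and red for Scd1, and among the T cell arrays nFoxA1Treg replicates 1 and 2 are redder than replicate 3.

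Between the T cell groups few of these genes moved, and the ones that did were not the synthesis enzymes as a group. In nFoxA1Treg against EncT, 3 of the 34 genes passed the test (8.82%), fewer than the 19.6% of all genes, with limma and a Benjamini-Hochberg adjusted p under 0.05 over all genes: Fads1 was higher (2.94% against 8.46% of all genes) and Insig2 and Acss2 lower (5.88% against 11.2%). In Treg against EncT, 3 of 34 passed (8.82%, against 16.5% of all genes): Fads1 was higher (2.94% against 6.23%) and Insig1 and Insig2 lower (5.88% against 10.3%). Both comparisons use the same EncT arrays, so shared calls are not independent of each other. A fit of the 9 T cell arrays alone called the same 3 genes in each comparison, where 18.2% of all genes (8% higher, 10.2% lower) and 14.3% (5.42% higher, 8.84% lower) were called. The arrays of both groups did not overlap for 4 genes higher and 2 lower in nFoxA1Treg (33.7% of all genes, 15.8% higher and 17.9% lower), and for 2 higher and 6 lower in Treg (33.3% of all genes, 14.1% higher and 19.2% lower).

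The clearest change was in Insig2, which encodes the Insig protein that retains Scap in the endoplasmic reticulum. Its probe set read 7.75, 7.55 and 7.72 on the EncT arrays, 7.30, 7.35 and 7.18 on nFoxA1Treg, 7.29, 7.20 and 7.26 on Treg, and 7.41, 7.39 and 7.37 on the arrays labelled iFoxA1Treg. Every EncT array was above every array of the other 3 groups. Insig2 fell by 0.40 in nFoxA1Treg (SE 0.072, interval -0.55 to -0.24, 1.32-fold, limma adjusted p = 0.00268). In Treg it fell by 0.42 (interval -0.58 to -0.27, 1.34-fold, limma adjusted p = 0.00255). When every probe set past the filter was tested singly, an alternative chosen after seeing the data, the 2 others of the gene were called lower in both comparisons, with differences of -0.55 and -0.58 in nFoxA1Treg and of -0.56 and -0.60 in Treg. The call held in all 23 alternative settings of each comparison.

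Insig1, the relative of Insig2 and itself a known SREBP target, has 1 probe set past the filter. It read 8.59, 8.52 and 8.63 on the EncT arrays, 8.62, 8.49 and 7.99 on nFoxA1Treg, and 8.16, 8.06 and 8.23 on Treg. The Treg arrays all lay below the EncT arrays, while nFoxA1Treg replicates 1 and 2 lay at the EncT level and replicate 3 lay below Treg. Insig1 fell by 0.43 in Treg (SE 0.12, interval -0.69 to -0.17, 1.34-fold, limma adjusted p = 0.0295). In nFoxA1Treg the difference from EncT was -0.21 (interval -0.47 to 0.049, limma adjusted p = 0.258).

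**Figure D2:**
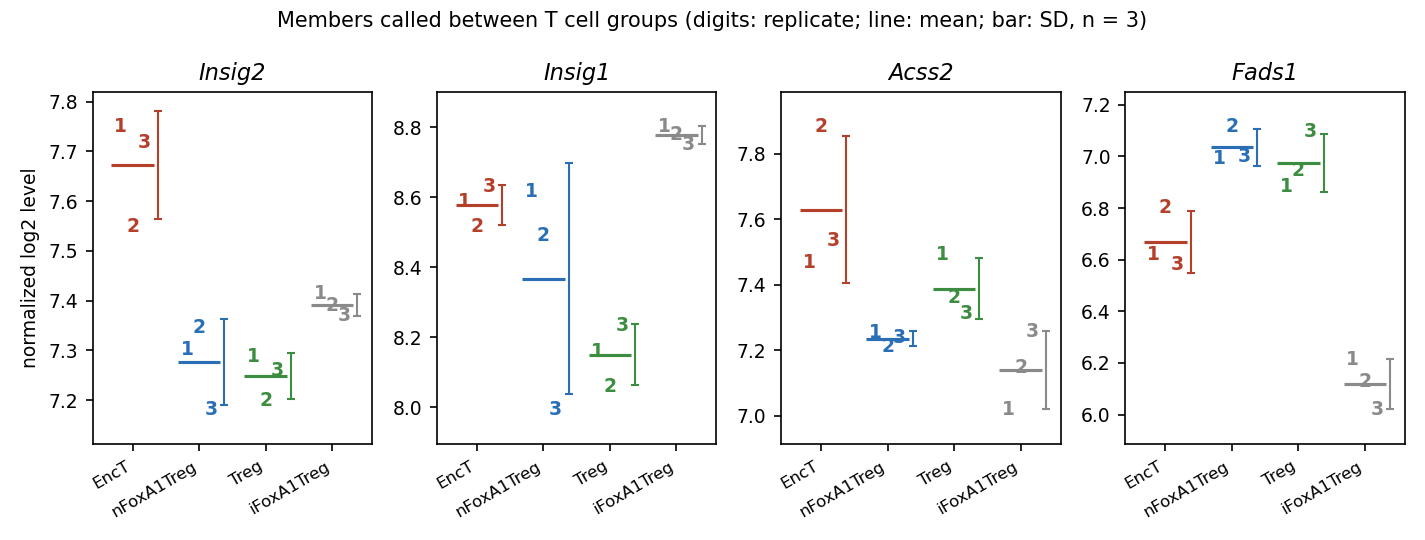
Normalized log2 level (vertical axis) of the 4 genes called between T cell groups, by group (horizontal axis); digits are replicates, the line is the mean and the bar the SD (n = 3). For Insig2 the EncT arrays (7.55 to 7.75) lie above all others, and for Insig1 nFoxA1Treg replicate 3 (7.99) lies apart from replicates 1 and 2.

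The remaining SREBP control genes did not pass. Scap, the escort protein, lay higher on all nFoxA1Treg arrays (9.76, 9.81 and 9.83) and all Treg arrays (9.73, 9.79 and 9.81) than on the EncT arrays (9.53, 9.70 and 9.70). Its differences from EncT were 0.16 (limma adjusted p = 0.0513) and 0.13 (limma adjusted p = 0.112). For Srebf1, whose product mainly drives fatty acid genes, the differences were -0.040 in nFoxA1Treg and -0.060 in Treg. For Srebf2, whose product mainly drives sterol genes, they were -0.070 and -0.24, the latter with an interval of -0.50 to 0.013.

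Acss2, which makes acetyl-CoA from free acetate and so supplies carbon for both arms, read 7.47, 7.89 and 7.54 on the EncT arrays, 7.26, 7.21 and 7.24 on nFoxA1Treg, and 7.49, 7.36 and 7.31 on Treg. The nFoxA1Treg arrays lay close together below every EncT array, and the Treg arrays overlapped with EncT. Acss2 fell by 0.39 in nFoxA1Treg (SE 0.10, interval -0.62 to -0.17, 1.31-fold, limma adjusted p = 0.0186), and its second probe set differed by -0.39 without passing (adjusted p = 0.0613). In Treg the difference was -0.24 (limma adjusted p = 0.137).

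Fads1, the delta-5 desaturase of long polyunsaturated fatty acids, read 6.62, 6.80 and 6.58 on the EncT arrays, 6.99, 7.12 and 6.998 on nFoxA1Treg, and 6.88, 6.94 and 7.10 on Treg. All nFoxA1Treg and Treg arrays were above all EncT arrays. By this probe set Fads1 rose by 0.37 in nFoxA1Treg (interval 0.17 to 0.57, 1.29-fold, limma adjusted p = 0.0152) and by 0.31 in Treg (interval 0.11 to 0.51, 1.24-fold, limma adjusted p = 0.0403). A second, dimmer probe set pointed the other way, with differences of -0.69 (adjusted p = 0.0537) and -0.43 (adjusted p = 0.237), and with the mean of both probe sets the sign turned to -0.16 and -0.063. The direction of Fads1 therefore depends on the probe set.

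The counts depended on single arrays, and so did the share of all genes called. In nFoxA1Treg against EncT, 5 genes were called without EncT replicate 2 (23.9% of all genes), where Scap (0.19) and Scd2 (-0.35) were added. There was 1 gene (Insig2) without nFoxA1Treg replicate 2 (12%), and 10 without nFoxA1Treg replicate 3 (16.9%). In Treg against EncT, 1 gene (Insig2) was called without EncT replicate 1 (11.2% of all genes), EncT replicate 3 (12%), Treg replicate 2 (8.06%) or Treg replicate 3 (8.48%). Without nFoxA1Treg replicate 3 there were 5 (17.3%), with Hmgcs1 (-0.22) and Srebf2 (-0.24) added. Insig1 in Treg lost its call without EncT replicate 1 or 3 or any 1 Treg array, and with no intensity trend (adjusted p from 0.0573 to 0.113). Acss2 lost it without nFoxA1Treg replicate 1 (adjusted p = 0.0506) or 2 (0.0618), and in a fit of the arrays of the compared groups alone (0.0596). Fads1 in nFoxA1Treg lost it without EncT replicate 3 (adjusted p = 0.0556) or nFoxA1Treg replicate 2 (0.0683). In Treg against EncT the direction of the calls over all genes also depended on the scaling. Of the genes called, 37.7% were higher after quantile normalization, 27.4% with values as deposited and 24.9% with arrays centred on their medians. With both alternatives the Fads1 call was lost (0.25, with adjusted p = 0.110 and 0.125). This Treg call of Fads1 was lost in 11 of 23 alternative settings and turned in 1, and leaving out EncT replicate 1 or 3 or Treg replicate 2 or 3 was among them (adjusted p from 0.0923 to 0.157).

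To show the control regions of the genes that changed, the 250 bases before the annotated start are printed for Insig1, Insig2 and Acss2 (RefSeq, GRCm38.p6), and for Hmgcs1, which was chosen after its match was seen because it is the one gene among the 28 listed with the sterol regulatory element letters. The sequences run 5′ to 3′ on the gene's strand, and capitals mark TCACNCCAC (the sterol regulatory element, bound by SREBP), CCAAT (bound by NF-Y, which acts with SREBP) and CACGTG (the E-box), each searched on both strands. Insig1 lies at chr5:28071162-28071411, plus strand, Insig2 at chr1:121332590-121332839, minus strand (the most upstream of 3 listed starts), Acss2 at chr2:155517793-155518042, plus strand, and Hmgcs1 at chr13:119690101-119690350, plus strand.
Insig1: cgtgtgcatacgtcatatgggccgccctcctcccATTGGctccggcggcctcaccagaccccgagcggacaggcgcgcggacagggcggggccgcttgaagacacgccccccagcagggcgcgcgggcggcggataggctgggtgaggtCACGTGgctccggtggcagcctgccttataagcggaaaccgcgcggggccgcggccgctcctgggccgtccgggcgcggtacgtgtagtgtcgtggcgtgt
Insig2: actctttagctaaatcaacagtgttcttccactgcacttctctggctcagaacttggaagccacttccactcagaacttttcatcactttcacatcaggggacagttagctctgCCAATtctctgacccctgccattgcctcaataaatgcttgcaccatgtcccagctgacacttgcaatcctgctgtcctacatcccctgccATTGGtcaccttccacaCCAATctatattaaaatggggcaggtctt
Acss2: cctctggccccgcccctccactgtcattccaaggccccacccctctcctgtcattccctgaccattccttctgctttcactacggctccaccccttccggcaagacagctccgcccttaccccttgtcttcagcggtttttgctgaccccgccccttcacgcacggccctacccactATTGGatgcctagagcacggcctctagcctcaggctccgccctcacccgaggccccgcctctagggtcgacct
Hmgcs1: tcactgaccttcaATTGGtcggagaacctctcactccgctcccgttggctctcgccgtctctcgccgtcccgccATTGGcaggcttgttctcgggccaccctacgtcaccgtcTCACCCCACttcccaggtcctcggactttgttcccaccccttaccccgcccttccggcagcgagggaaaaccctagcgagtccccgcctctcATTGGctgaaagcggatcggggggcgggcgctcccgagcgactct
Insig1 has an NF-Y match (ATTGG) that begins 216 bases before the start and an E-box 101 bases before it. Insig2 has NF-Y matches 136, 46 and 29 bases before the start, Acss2 has a single NF-Y match 73 bases before it, and Hmgcs1 has the sterol regulatory element match, TCACCCCAC, 137 bases before the start between NF-Y matches at 176 and 45 bases.

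Over the 28 genes with a listed promoter, CCAAT or its complement was present in 22 (78.6%), against 37.5% of the 27025 genes listed. It was present in 15 of 16 mevalonate and sterol arm genes, Acat2 included, and in 2 of 6 fatty acid arm genes. The Sp1 letters GGGCGG, not marked in the sequences, were in 23 of 28 (82.1%, against 35.4%) and the E-box in 5 of 28 (17.9%, against 6.86%). The sterol regulatory element was in 1 of 28 (3.57%, against 1.22%). A gene was counted if the window of any of its listed starts held a match, so the counts can include matches outside the printed sequences. The Sp1 match of Insig2 is such a case. These are matches of letters in a fixed window and not measured binding.

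No gene of the mevalonate arm or the sterol arm passed the test in either comparison with EncT. In nFoxA1Treg the sign was positive for 5 of 7 mevalonate arm genes and 10 of 11 sterol arm genes, with medians of 0.12 and 0.086. In Treg it was negative for 6 of 7 and 10 of 11, with medians of -0.18 and -0.066, while the medians of all genes were -0.0045 and -0.0038. The largest positive values in nFoxA1Treg were those of Cyp51, the lanosterol demethylase (0.28, interval -0.0034 to 0.56), and Fdft1, which makes squalene (0.26, interval 0.058 to 0.46, limma adjusted p = 0.0679). A second probe set of each, tested singly, was called higher in nFoxA1Treg (Cyp51 0.49, adjusted p = 0.0410, and Fdft1 0.28, adjusted p = 0.0224). In Treg, 1 of 4 other probe sets of Hmgcs1 (-0.97, adjusted p = 0.0460) and 1 of 2 of Sc5d (-0.45, adjusted p = 0.0440) were called lower.

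These small means hid a split among the nFoxA1Treg arrays. Fdps, which makes farnesyl diphosphate, read 9.42 and 9.26 on replicates 1 and 2 and 8.52 on replicate 3, against 8.83, 8.91 and 9.12 on EncT and 8.63, 8.63 and 8.90 on Treg. Hmgcs1, the synthase that makes HMG-CoA, read 10.25, 10.24 and 9.65, against 9.93, 9.92 and 10.15 on EncT and 9.75, 9.69 and 9.90 on Treg. For both genes replicates 1 and 2 were above all 6 arrays of the other T cell groups and replicate 3 was below them. Cyp51 read 9.14, 9.15 and 8.53, against 8.58, 8.73 and 8.67 on EncT and 8.57, 8.49 and 8.72 on Treg. Idi1, the isopentenyl diphosphate isomerase, read 9.21, 9.20 and 8.65, against 8.82, 8.74 and 8.84 on EncT and 8.70, 8.73 and 8.85 on Treg. Replicates 1 and 2 again stood highest of the 9 arrays, with replicate 3 at or near the bottom.

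Replicate 3 was the lowest of its group for 26 of the 34 genes (76.5%), against 33.5% of all genes, and for 15 of 18 mevalonate and sterol arm genes. With values as deposited it was lowest for 28 of 34 (82.4%, against 44% of all genes), and with arrays centred on their medians for 26 (76.5%, against 33%). The gap between replicate 3 and the lower of the other replicates was 1.04 for Scd1, 0.74 for Fdps, 0.61 for Cyp51, 0.59 for Hmgcs1, 0.55 for Idi1, 0.50 for Insig1, 0.46 for Msmo1, 0.42 for Srebf2 and Mvk, and 0.41 for Sqle. Genes outside the pattern were Pmvk, Ggps1, Tm7sf2, Scap, Tmem97, Acss2, Fads1 and Fads2, of which Ggps1, Tm7sf2, Scap and Fads2 were highest on replicate 3, Fads2 by the widest margin (6.46, against 6.004 and 6.19). The median deviations from the mean of the T cell arrays were 0.31, 0.30 and -0.19 for the mevalonate arm on replicates 1, 2 and 3, and 0.17, 0.22 and -0.11 for the sterol arm. The median range within nFoxA1Treg was 0.34 for these genes and 0.18 for all genes. In EncT it was 0.22 against 0.26, and in Treg 0.19 against 0.17.

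Other lists were set beside the split. The proliferation list, which includes Mki67 and Top2a, deviated by 0.14, 0.14 and 0.15 on nFoxA1Treg replicates 1, 2 and 3, so the 3 arrays were alike in it. The list of MHC class II and dendritic cell genes deviated by -1.12, -1.76 and 0.19, and thus was higher on replicate 3, and the macrophage list by -0.25, -0.62 and -0.012. These medians include genes below the level of the filter in T cells, 1 of 7 and 3 of 8. Such genes passed the filter through the arrays labelled iFoxA1Treg, so the deviations rest partly on low values. The T cell list deviated by -0.043, -0.044 and -0.081. The part of the other cell types in the split was not tested. Within EncT, replicate 1 was lowest for 24 of 34 genes (70.6%, against 46.7% of all genes), and its proliferation list stood at -0.39, against -0.075 and -0.19 on replicates 2 and 3. Within Treg, replicate 2 was lowest for 18 of 34 (52.9%, against 31.4%), and with arrays centred on their medians for 26 (76.5%, against 53.1%), so nFoxA1Treg replicate 3 was not the only array at the low end of its group.

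**Figure D3:**
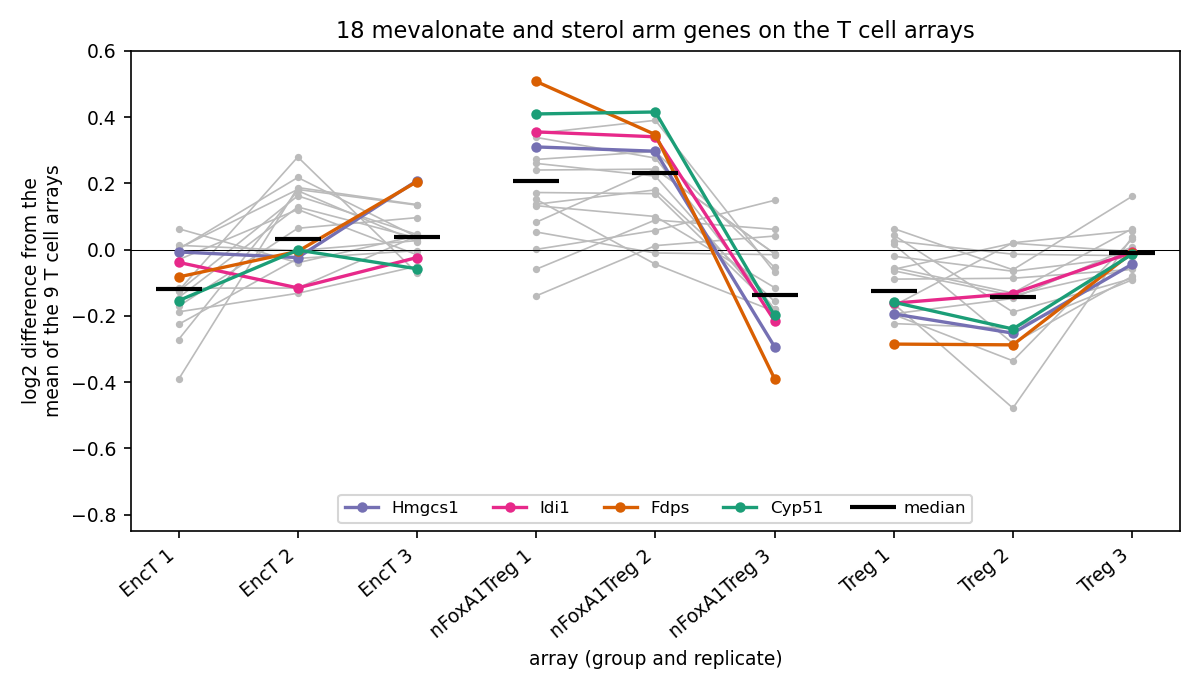
The 18 mevalonate and sterol arm genes on the 9 T cell arrays (horizontal axis, by group and replicate); the vertical axis is the log2 difference from the gene's mean over these arrays, points of 1 gene are joined within a group, and black bars are medians. In nFoxA1Treg replicates 1 and 2 lie above 0 for most genes and replicate 3 below, by 0.74 between the nearest values for Fdps. Replicate numbers carry no order.

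Without nFoxA1Treg replicate 3, 10 of 34 genes were called against EncT, where 16.9% of all genes were called. The genes added as higher were Cyp51 (0.48, limma adjusted p = 0.00176), Idi1 (0.41, adjusted p = 0.00168), Fdps (0.39, adjusted p = 0.0225), Fdft1 (0.37, adjusted p = 0.00832), Fasn (0.29, adjusted p = 0.0434) and Msmo1 (0.29, adjusted p = 0.0474). Fads2, the delta-6 desaturase, was added as lower (-0.42, adjusted p = 0.0265). The fit then has a pair of nFoxA1Treg arrays, and no label gives a reason to leave replicate 3 out. Replicate 3 stood out by the values of these same genes, so the calls without it are not separate evidence of a difference.

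In nFoxA1Treg against Treg none of the 34 genes passed the test with limma, and of all genes 1 did (0.00793%). At an unadjusted p under 0.05 there were 7 of 34 (20.6%), against 468 of all genes (3.71%): Hsd17b7, Tmem97, Fdft1, Cyp51, Msmo1, Acly and Idi1, all higher in nFoxA1Treg. The sign was positive for 31 of 34 genes, against 52.5% of all genes, and the median was 0.15 against 0.0061. Under the alternatives the number of positive genes was between 29 and 32, with the lower end without Treg replicate 2. Since these genes share their regulation and the nFoxA1Treg arrays differ among themselves, the 31 signs are not independent observations.

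By role, all 11 sterol arm genes and 6 of 7 mevalonate arm genes were positive. Hsd17b7, a ketoreductase of the sterol arm, read 6.78, 6.79 and 6.53 on nFoxA1Treg and 6.32, 6.30 and 6.45 on Treg, a difference of 0.34 (interval 0.11 to 0.57). Tmem97, a sterol-responsive membrane protein, read 7.18, 7.29 and 7.27 against 7.02, 6.997 and 6.99, a difference of 0.24 (interval 0.058 to 0.43). For Fdft1 the values were 9.10, 9.12 and 8.77 against 8.76, 8.68 and 8.77, a difference of 0.26 (interval 0.059 to 0.46). In these 3 of the 34 genes no nFoxA1Treg array lay below a Treg array, although for Fdft1 the nearest values were almost equal (8.770 and 8.767). Of all genes, 6.57% showed this pattern in this direction, 4.67% in the other (here Acss2 alone) and 11.2% in both. The count of 3 is near that share, and nothing particular to these genes is drawn from it. The fit of the 9 T cell arrays likewise called none of the 34 and 1 of all genes (0.008%, lower). Without nFoxA1Treg replicate 3, Cyp51 (0.55, limma adjusted p = 0.0148) and Idi1 (0.45, adjusted p = 0.0164) were called, where 0.0872% of all genes were. Both genes are among those by which replicate 3 stood out, so the limit given above holds here too. The 3 negative genes were Mvd, Acss2 and Fads2, with differences of -0.024, -0.15 and -0.12.

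The other genes of the fatty acid arm and sterol transport gave no called difference between the T cell groups. Acaca, the acetyl-CoA carboxylase, averaged 8.10 on EncT, 8.31 on nFoxA1Treg and 8.12 on Treg, and Fasn, the fatty acid synthase, 9.38, 9.55 and 9.42. Acly, which cleaves citrate to acetyl-CoA, averaged 9.95, 9.93 and 9.83. Elovl6, an elongase, averaged 6.02, 6.16 and 5.99. Scd2, the stearoyl-CoA desaturase isoform that stood high in T cells, averaged 11.18 ± 0.30, 10.96 ± 0.20 and 10.85 ± 0.059 (SD, n = 3), and Scd1, its relative, 5.96 ± 0.67, 5.65 ± 0.63 and 5.38 ± 0.56. The difference of Scd1 in Treg from EncT, -0.58, had an interval of -1.35 to 0.18. Stard4, a cytosolic sterol carrier, averaged 9.12, 9.06 and 8.91.

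The mevalonate and sterol arm genes not yet described were as close. Mvk, Pmvk and Mvd, which turn mevalonate into isopentenyl diphosphate, averaged 5.77, 6.02 and 5.59, then 6.52, 6.46 and 6.32, then 6.73, 6.68 and 6.70 on EncT, nFoxA1Treg and Treg. Ggps1, which makes geranylgeranyl diphosphate, averaged 7.51, 7.70 and 7.69. Sqle, the squalene epoxidase, averaged 9.01, 9.09 and 8.88, and Lss, which closes the sterol ring, 7.07, 7.24 and 7.10. Tm7sf2 averaged 5.67, 5.54 and 5.49, Msmo1 8.44, 8.56 and 8.25, and Nsdhl 8.29, 8.34 and 8.26. Ebp, the sterol isomerase, averaged 9.57, 9.57 and 9.55, Sc5d 8.88, 8.91 and 8.78, and Dhcr7, the reductase of the last step from 7-dehydrocholesterol, 7.54, 7.62 and 7.54. None of these genes was called between T cell groups on all 12 arrays by the probe set used.

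The proliferation list moved in the same comparisons. Of its 14 genes, 11 were called higher in nFoxA1Treg than in EncT and 10 in Treg, where 8.46% and 6.23% of all genes were called higher, with medians of 0.34 and 0.29. The other lists are counted over the genes whose mean on the T cell arrays reached the level of the filter, since the rest, 5 of 9 B cell and 3 of 8 macrophage genes among them, passed it through the arrays labelled iFoxA1Treg. Calls in these lists were all in the lower direction, for which the shares of all genes were 11.2% in nFoxA1Treg and 10.3% in Treg. Of 6 MHC class II and dendritic cell genes 5 were lower in nFoxA1Treg and 2 in Treg, of 5 macrophage genes 1 in each, and of 13 T cell genes 3 in each. None of 4 B cell genes and none of 6 neuron genes was called in either comparison. Of 4 oligodendrocyte genes 1 was lower in nFoxA1Treg and 2 in Treg, and of 4 astrocyte genes 1 in each. The part of these lists in the results on synthesis genes was not tested.

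The arrays labelled iFoxA1Treg differed from each T cell group in most of these genes, as in most of all genes. Against EncT 26 of 34 were called (76.5%, against 72.2% of all genes), against nFoxA1Treg 24 (70.6%, against 74.4%) and against Treg 26 (76.5%, against 73.6%). The total was thus near the background. The direction was not: 22 were lower than in EncT (64.7%, against 38.3% of all genes), 19 lower than in nFoxA1Treg (55.9%, against 39.2%) and 19 lower than in Treg (55.9%, against 38.4%). Higher calls numbered 4 (11.8%, against 33.9%), 5 (14.7%, against 35.2%) and 7 (20.6%, against 35.2%). Arrays did not overlap for 9 genes higher and 21 lower than in EncT (73.4% of all genes, 35% and 38.4% by direction), 6 and 19 against nFoxA1Treg (77.7%, 37% and 40.7%) and 10 and 20 against Treg (77.7%, 37.2% and 40.5%). The 3 comparisons share the arrays labelled iFoxA1Treg. Given the marker genes above, they set cells with B cell and myeloid RNA against T cells, and the synthesis genes cannot be told apart from that difference in cell type, from the difference in Xist and Eif2s3y, or from the proliferation list, of which 14 of 14 genes were lower than in EncT (median -1.57).

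The split depended in part on the scaling. With values as deposited the median of all genes moved from -0.024 to -0.18 against EncT, from -0.023 to -0.17 against nFoxA1Treg and from -0.019 to -0.15 against Treg. The share of higher ones among the genes called, not among all genes tested, moved from 47% to 36.1%, from 47.3% to 38.1% and from 47.8% to 38.8%. The synthesis genes then numbered 1 higher and 23 lower, 3 higher and 22 lower, and 4 higher and 21 lower. Their medians were -0.54, -0.71 and -0.41 after quantile normalization, and -0.74, -0.85 and -0.56 with values as deposited. The sterol arm had 9 of 11 genes lower in each comparison under every scaling.

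In the sterol arm, Lss read 7.02, 7.02 and 7.18 on EncT, 7.22, 7.38 and 7.13 on nFoxA1Treg, 7.08, 7.01 and 7.20 on Treg, and 5.76, 6.02 and 5.89 on the arrays labelled iFoxA1Treg. Nsdhl, a sterol dehydrogenase that removes a methyl carbon, read 8.13, 8.36 and 8.39, then 8.43, 8.40 and 8.18, then 8.28, 8.23 and 8.27, and 7.22, 7.27 and 7.22. Ebp read 9.42, 9.69 and 9.60, then 9.62, 9.55 and 9.55, then 9.504, 9.58 and 9.56, and 8.76, 8.87 and 8.87. In each gene the arrays labelled iFoxA1Treg lay below all 9 others without overlap. The differences from EncT were -1.18 for Lss (SE 0.097, 2.27-fold, limma adjusted p = 1.2e-07), -1.06 for Nsdhl (SE 0.080, 2.08-fold, adjusted p = 5.43e-08) and -0.74 for Ebp (SE 0.064, 1.67-fold, adjusted p = 2.15e-07). The dimmer probe set of Lss differed by -0.36 from EncT, -0.17 from nFoxA1Treg and -0.13 from Treg, and was called in none of these comparisons.

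Sqle (-0.97), Dhcr7 (-0.98), Sc5d (-0.89), Cyp51 (-0.81), Hsd17b7 (-0.76) and Fdft1 (-0.43) also fell against EncT, and each was lower against the other T cell groups too by the probe set used. For Hsd17b7 the call rests on 1 probe set. The others differed from EncT by 0.26, 0.16 and -0.12 without being called, 1 of them was called higher than in Treg (0.47, adjusted p = 0.00755), and the mean of all was not called against EncT (-0.12, adjusted p = 0.289) or Treg (-0.049, adjusted p = 0.658). The probe set used for Hsd17b7 is of a type that can match several transcripts, as are others, among them those used for Lss, Fdft1, Hmgcs1 and Ggps1. For Cyp51 the calls against EncT and Treg rest on 1 probe set too. Its second one was not called there (-0.20, adjusted p = 0.246, and -0.31, adjusted p = 0.0818). Tm7sf2, a sterol reductase, and Msmo1, the methylsterol oxidase, did not fall. Tm7sf2 read 5.87, 5.86 and 5.75 and Msmo1 8.57, 8.53 and 8.498 on the arrays labelled iFoxA1Treg. Tm7sf2 was called higher than in nFoxA1Treg (0.29) and Treg (0.34), and Msmo1 higher than in Treg (0.28, limma adjusted p = 0.0474). With values as deposited these calls were lost (0.083, 0.13 and 0.15), and that of Msmo1 was lost in 11 of 22 alternative settings. Tm7sf2 also lost its call against nFoxA1Treg without nFoxA1Treg replicate 1 (adjusted p = 0.110) or iFoxA1Treg replicate 1 (0.0710) or 2 (0.0731), and against Treg without Treg replicate 2 (0.0538).

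The mevalonate arm had no common direction. Hmgcs1 fell against EncT (-0.53) and nFoxA1Treg (-0.58). Against Treg it differed by -0.31 (limma adjusted p = 0.0452), a call lost in 10 of 22 alternative settings (adjusted p up to 0.149), among them each Treg array and each array labelled iFoxA1Treg left out. Mvk fell against nFoxA1Treg (-0.81) and EncT (-0.57), the latter call being lost without EncT replicate 2 (adjusted p = 0.0809), EncT replicate 3 (0.0788) or iFoxA1Treg replicate 1 (0.0998). The second probe set of Mvk was not called against nFoxA1Treg (-0.33, adjusted p = 0.115) or EncT (-0.41, adjusted p = 0.0580). Pmvk, the phosphomevalonate kinase, read 7.05, 6.89 and 6.99, above all T cell arrays (6.15 to 6.65), and rose against all 3 groups, by 0.46, 0.51 and 0.66, although against EncT the call was lost with values as deposited (0.22, adjusted p = 0.0669). Ggps1 read 7.68, 7.79 and 7.69 and was called higher than in EncT (0.21, limma adjusted p = 0.0203), but not with values as deposited (0.0027) or without EncT replicate 1 (adjusted p = 0.0602) or iFoxA1Treg replicate 2 (0.0808), and the mean of its probe sets gave -0.29. Idi1, Fdps and Mvd were not called by the probe sets used, with differences from EncT of 0.14, 0.036 and -0.22. The second probe set of Mvd was called lower against all 3 groups (-0.60, -0.51 and -0.43, adjusted p = 0.000144, 0.000532 and 0.00182).

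Among the SREBP control genes, Scap read 8.60, 8.60 and 8.57 on the arrays labelled iFoxA1Treg, against 9.53 to 9.83 on the T cell arrays. It fell by 1.05 against EncT (SE 0.053, 2.07-fold, limma adjusted p = 7.4e-10), by 1.21 against nFoxA1Treg and by 1.18 against Treg. Srebf1 read 8.56, 8.77 and 8.76, against 9.51 to 9.72 on the T cell arrays, and fell by 0.95 against EncT (SE 0.066, 1.93-fold, limma adjusted p = 2.08e-08), by 0.91 against nFoxA1Treg and by 0.89 against Treg. Both genes thus lay about as far apart from each T cell group. Srebf2 differed from EncT by -0.28 (limma adjusted p = 0.0467), a call lost in 12 of 22 alternative settings (adjusted p up to 0.129), and was not called against the others, while its second probe set was called lower against all 3 (-1.31, -1.26 and -1.12).

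The Insig genes took other directions. Insig1 read 8.80, 8.78 and 8.75 on the arrays labelled iFoxA1Treg and was called higher than in Treg (0.63, limma adjusted p = 0.000353) and nFoxA1Treg (0.41, adjusted p = 0.00727). Against EncT the difference was 0.20 and not called, and with values as deposited the call against nFoxA1Treg was lost (0.27, adjusted p = 0.0803). Insig2 fell against EncT (-0.28, limma adjusted p = 0.00335) and was not called against nFoxA1Treg (0.11) or Treg (0.14). Both of its other probe sets were called higher than in nFoxA1Treg and Treg, 1 of them by 0.52 and 0.53. That probe set showed almost no difference from EncT (-0.027). The other differed by 0.19 and 0.21 (adjusted p = 0.0465 and 0.0298), and was called lower than in EncT (-0.40).

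**Figure D4:**
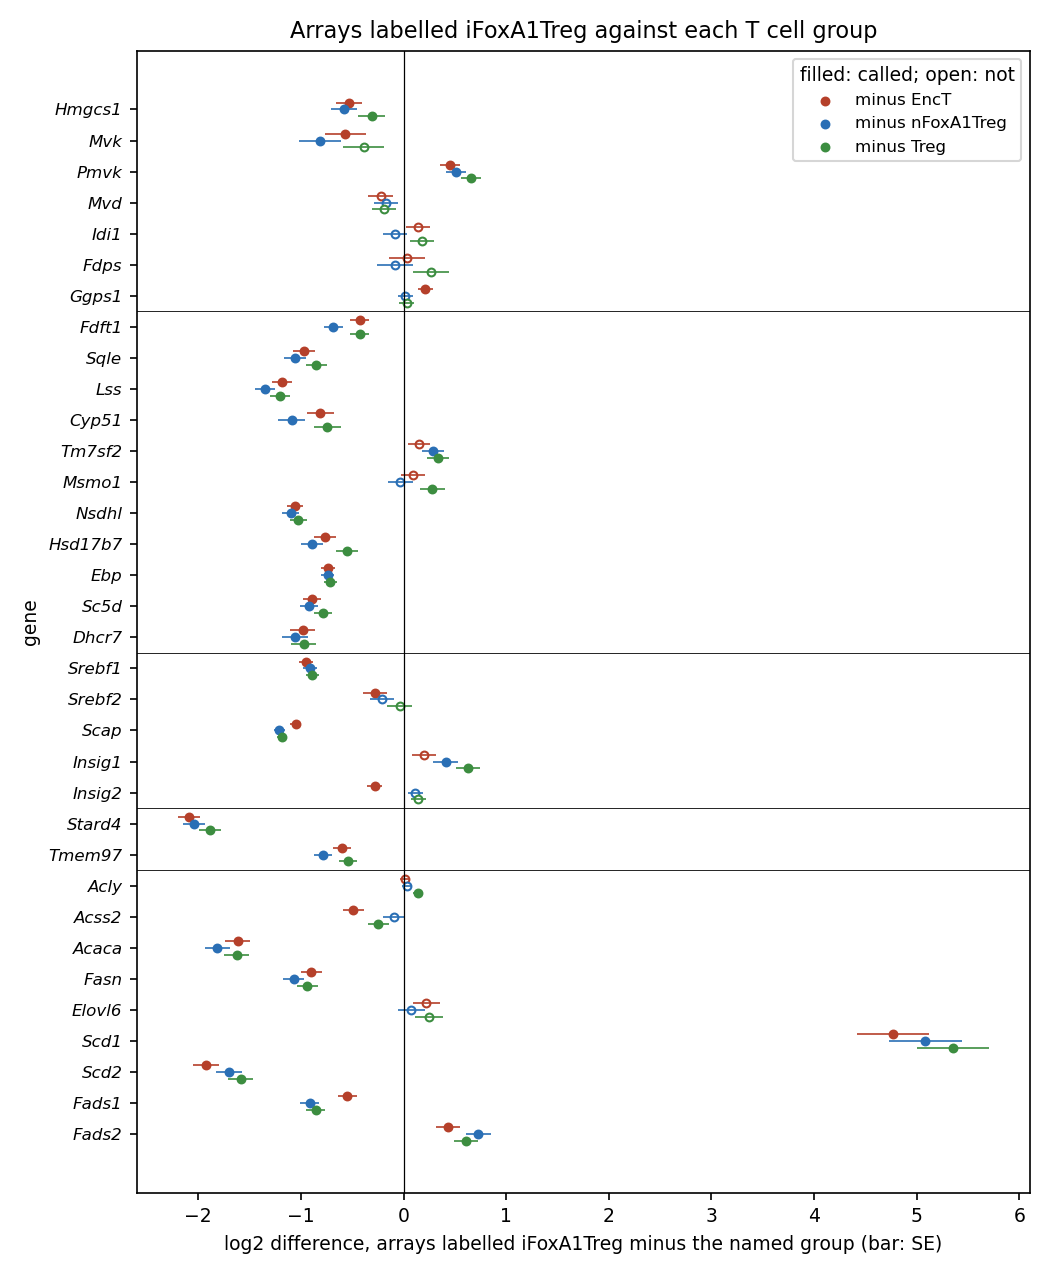
Log2 difference of the arrays labelled iFoxA1Treg from EncT, nFoxA1Treg and Treg (horizontal axis, bar is the SE) for each of the 34 genes (vertical axis, by role); filled points were called. Scd1 lies far to the right (4.77 to 5.35) and Stard4, Scd2 and Acaca farthest to the left, and 9 of 11 sterol arm genes are lower in each comparison.

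The fatty acid arm held the largest values, and its 2 stearoyl-CoA desaturases went opposite ways. Scd1 read 10.68, 10.76 and 10.76 on the arrays labelled iFoxA1Treg, against 5.27, 6.01 and 6.61 on EncT, 6.06, 5.96 and 4.92 on nFoxA1Treg, and 5.15, 4.97 and 6.02 on Treg. It rose by 4.77 against EncT (SE 0.35, interval 4.01 to 5.53, 27.3-fold, limma adjusted p = 4.02e-08), by 5.09 against nFoxA1Treg (34-fold) and by 5.35 against Treg (40.9-fold). Scd2 read 9.35, 9.26 and 9.17, against 11.51, 10.93 and 11.11 on EncT, 11.13, 11.0002 and 10.74 on nFoxA1Treg, and 10.83, 10.80 and 10.91 on Treg. The differences were -1.93 against EncT (SE 0.12, 3.8-fold, limma adjusted p = 1.02e-08), -1.70 against nFoxA1Treg and -1.59 against Treg. Neither gene's arrays overlapped between the T cell groups and the arrays labelled iFoxA1Treg. The size for Scd1 depends on the probe set: a second one differed by 2.92, 2.81 and 3.38 from EncT, nFoxA1Treg and Treg, and the mean of both by 3.85, 3.95 and 4.37. The table carries no measure of background, so no bound on these folds can be given. The direction was the same for both probe sets, and the 2 other Scd2 probe sets differed from EncT by -2.90 each.

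Acaca read 6.56, 6.64 and 6.27 on the arrays labelled iFoxA1Treg, against 7.84 to 8.47 on the T cell arrays, and differed by -1.61 from EncT (SE 0.12, 3.06-fold, limma adjusted p = 4.69e-08), -1.82 from nFoxA1Treg and -1.63 from Treg. Fasn fell against all 3 (-0.90, -1.07 and -0.94). Fads1 fell by its brighter probe set (-0.55, -0.92 and -0.86), and its dimmer one was called higher than in nFoxA1Treg (0.92) and Treg (0.66). Fads2 read 7.06, 6.88 and 6.91, above all T cell arrays (6.004 to 6.68), and rose by 0.43, 0.73 and 0.61, the call against EncT being lost with values as deposited (0.20, adjusted p = 0.137). Acss2 fell against EncT (-0.49), where its second probe set was not called (-0.18, adjusted p = 0.231), and was not called against nFoxA1Treg (-0.095). Against Treg it differed by -0.25 (limma adjusted p = 0.0450), a call lost in 11 of 22 alternative settings, and the mean of its probe sets gave -0.080 (adjusted p = 0.528). Acly read 9.97, 9.95 and 9.98 and was called higher than in Treg alone (0.14, limma adjusted p = 0.0135), but not without Treg replicate 2 (adjusted p = 0.0601), while 2 other probe sets were called lower than in Treg (-0.37 and -0.14). Elovl6 was not called by the probe set used, with differences of 0.22, 0.077 and 0.25. Its second probe set was called higher against all 3 groups (0.49, 0.35 and 0.50, adjusted p = 0.00563, 0.0332 and 0.00494).

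Both sterol transport genes fell. Stard4 read 7.08, 7.05 and 6.95 on the arrays labelled iFoxA1Treg, against 9.20, 8.97 and 9.19 on EncT, 9.29, 9.08 and 8.83 on nFoxA1Treg, and 8.74, 8.97 and 9.02 on Treg, with no overlap. The differences were -2.09 against EncT (SE 0.11, 4.26-fold, limma adjusted p = 1.06e-09), -2.04 against nFoxA1Treg and -1.88 against Treg, and its other probe sets differed from EncT by -1.66 and -0.97. Tmem97 differed by -0.60, -0.79 and -0.54, called in each comparison.

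**Figure D5:**
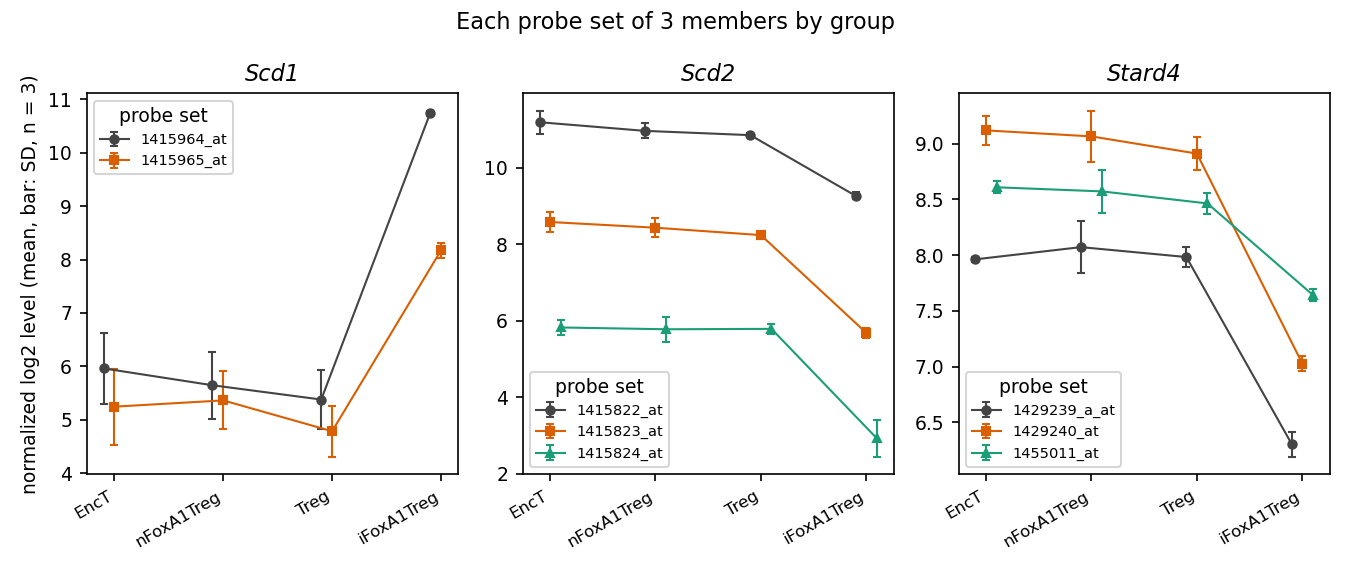
Normalized log2 level (vertical axis, mean with SD, n = 3) of every probe set of Scd1, Scd2 and Stard4 by group (horizontal axis). Every probe set of Scd1 is higher and every one of Scd2 and Stard4 lower on the arrays labelled iFoxA1Treg than in the T cell groups, with differences from EncT of 2.92 and 4.77 for Scd1.

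Genes of adjoining pathways were counted from lists. Between nFoxA1Treg and Treg none of the genes of these 7 lists was called with limma, and 1, of the 12 isoprenoid genes, reached an unadjusted p under 0.05. Against EncT, 8.46% of all genes were called higher and 11.2% lower in nFoxA1Treg, and 6.23% and 10.3% in Treg. The counts in these lists, of at most 4 genes in 1 direction, are to be read against those shares, and nothing particular to a list is drawn from them. Among 10 genes of sterol efflux and the LXR receptors, which answer to sterol surplus, 3 fell in both groups and none rose. Mylip, the ligase that degrades lipoprotein receptors, fell by 0.98 and 0.82 (limma adjusted p = 0.00186 and 0.00686), Abca1, the cholesterol exporter, by 0.65 and 0.62, and Abcg1, a second exporter, by 0.50 and 0.36. Apoe, the 11th gene of the list, averaged 1.13 to 3.15 in the T cell groups, below the level of the filter, which it passed through the arrays labelled iFoxA1Treg (mean 10.2), so its difference between T cell groups is not read. These exporters are also high in macrophages, and on the arrays labelled iFoxA1Treg Mylip, Abca1 and Abcg1 were higher than in EncT by 4.03, 2.54 and 1.49. Of the macrophage list, 1 of the 5 genes above the filter level in T cells was called lower in each comparison, and its part in the result was not tested.

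Among 13 genes of sterol uptake, trafficking and esterification, 2 fell in nFoxA1Treg against EncT and 3 in Treg: Npc2, which hands cholesterol out of the lysosome (-0.26 and -0.29), Gramd1a, a sterol carrier at membrane contacts (-0.50 and -0.31), and, in Treg, Osbpl9 (-0.20). Of 13 further sterol synthesis and SREBP processing genes, 1 was called, Erlin1, an endoplasmic reticulum protein that binds cholesterol (0.37 and 0.38). Of 12 isoprenoid-using genes, Fnta, the shared subunit of the prenyl transferases, fell in nFoxA1Treg (-0.20), and none was called in Treg.

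On the fatty acid side, 1 of 19 other synthesis and activation genes rose in both groups, Mecr, of mitochondrial fatty acid synthesis (0.44 and 0.28), and Slc25a1, the citrate carrier, fell in Treg (-0.23). Of 15 glycerolipid genes, Agpat3 rose (0.21 and 0.25), Cds2 (-0.23 and -0.26) and Cept1 (-0.22 in both) fell, and in Treg 4 fell in all, Dgat1 among them (-0.32). Of 16 fatty acid oxidation genes, 3 fell in each group, Acadm (-0.36 and -0.42), Acads (-0.26 and -0.30) and Acaa2 (-0.21 and -0.19), and Echs1 rose (0.30 and 0.24).

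On the arrays labelled iFoxA1Treg against EncT, the efflux and LXR list had 7 genes higher and 4 lower (median 1.49), uptake and trafficking 7 and 4, with Osbpl9 (1.73), Lipa (1.56) and Npc1 (1.27) leading the higher ones, and further sterol synthesis and SREBP processing 5 and 8. Other fatty acid synthesis had 4 higher and 11 lower, led by Tecr (-1.94), Acsl5 (-1.22) and Me1 (-1.94). Fatty acid oxidation had 3 and 11, led by Hadha (-1.81), Hadh (-1.16) and Acaa2 (-0.82). Glycerolipid synthesis had 3 and 7, and isoprenoid use 3 and 3. These counts stand beside 33.9% of all genes called higher and 38.3% called lower.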

How the data were processed

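RNA of 4 labelled cell types was measured on 12 arrays, 3 per cell type, and the deposited table holds log2 values of the authors for 45037 probe sets. The submitters' processing notes name PLIER. Which version was run, in what role, and whether arrays were scaled to each other is not stated for this table, and base 2 was inferred from the range of the values. Per the labels' protocols, total RNA was amplified from the 3′ end and labelled with biotin.

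Genes were assigned to probe sets through the platform's annotation: 34945 had 1 gene, 932 several and 9160 none, and 34741 of the first matched the RefSeq gene table, with 0 symbols changed. Values were quantile normalized (array medians ran from 4.64 to 4.84), the upper 60% of probe sets by mean were kept (4.05 and above), and each gene was read from its brightest probe set. The test was limma 3.58.1 (R 4.3.3), with 4 group means over 12 arrays (8 residual degrees of freedom), an intensity trend, and two-sided p-values adjusted by Benjamini-Hochberg over all 12609 genes, with a threshold of 0.05. Intervals are limma's at 95%, unadjusted. The code was tested on simulated data. Promoters came from the RefSeq table of GRCm38.p6, which lists 28 of the 35 genes.

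The genes, lists and alternatives were chosen with earlier results of these data known. Values by array are given for genes called between T cell groups and for up to 8 called genes per direction, by adjusted p, on the arrays labelled iFoxA1Treg, and for genes of the nFoxA1Treg split, which were picked after their values were seen; of the adjoining lists, up to 3 called genes per direction are named. Alternatives were other scalings, filters, offsets, probe set rules, fits and each array left out.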

Additional observations from a re-analysis of the deposited data

How the results depend on the processing

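In nFoxA1Treg against EncT 3 genes were called, and 8 with array weights (where 37.4% of all genes were called). With each array left out in turn 1 to 10 were called (12% to 23.9% of all genes). In Treg against EncT 3 were called, 11 with array weights (33.3% of all genes), and 1 to 5 with arrays left out (8.06% to 21.5%). In nFoxA1Treg against Treg the count was 0, and 0 to 2 with arrays left out (at most 0.0872% of all genes). On the arrays labelled iFoxA1Treg the 26, 24 and 26 calls against EncT, nFoxA1Treg and Treg ranged over 24 to 28, 23 to 27 and 22 to 27. The shares of all genes were then 68.6% to 72.3%, 69.8% to 75.3% and 69.1% to 74.8%. The other settings kept every count within 1.5 times. Among differences called either way, a sign reversed only with the mean of a gene's probe sets, which differ in direction: Fads1 (-0.16 in nFoxA1Treg and -0.063 in Treg against EncT, and 0.0020 on the arrays labelled iFoxA1Treg against nFoxA1Treg), Ggps1 (-0.29, -0.36 and -0.32 on the latter arrays against EncT, nFoxA1Treg and Treg) and Acly (-0.16, -0.15 and -0.064). Of the differences from EncT in nFoxA1Treg, called or not, 21 were positive, and 16 to 27 with arrays left out. Replicate numbers did not pair the samples: correlations of same-numbered arrays' deviations ran from -0.16 to 0.17, 2 of 18 were over 0.1, and 4 of 12 arrays correlated best with their own number. With the replicate block 4 and 2 genes were called in nFoxA1Treg and Treg against EncT, 0 between these groups, and 25, 24 and 23 on the arrays labelled iFoxA1Treg; Scap was added (0.16, adjusted p = 0.0478) and Fads1 in Treg lost (adjusted p = 0.0563). The arrays give no read depth and the table no background, so low T cell values, such as those of Scd1, have no known floor.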
